A study of Mus musculus with 12 samples.

Results

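The livers of mice without NSun2 were compared 3 days after a single toxic injury and without it. tRNA-derived small RNAs (tsRNAs) were sequenced in 2 libraries of NS-KO livers at D3 and 2 of NS-KO livers at D0. All tRNA fragments of these 4 libraries were taken, each distinct read sequence counted once, and were followed by subtype, by isodecoder (tRNAs of one anticodon), by position on the tRNA and by length. The 4 libraries held 54745 of the 87699 distinct sequences of the series and 466527 of its 1705883 reads.

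The NS-KO mice carried a short deletion in NSun2 on both alleles, made by Cas9 in zygotes, so that every tissue lacked the gene, and were bred on the B6D2F1/Crl background by mating of heterozygotes. They were adult males. D0 animals received corn oil. D3 animals received 40% CCl4 in corn oil once, at 2 mL per kg into the peritoneum, and were examined 3 days later. CCl4 is a solvent that hepatocytes convert to a radical that kills the cells around the central veins. The other 8 libraries came from NS-KO livers at D27, after repeated injections, and from wild-type (WT) livers at D0, D3 and D27. RNA was taken from whole liver without the gall bladder, so fewer cells of a type and less RNA per cell cannot be told apart. The study describes its 2 libraries per group as independent biological replicates, the labels do not name the animals, and the p-values measure the spread between these samples.

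NSun2 mRNA and marker genes of liver cell types are not measured by tRNA fragments, so neither the genotype nor the tissue could be checked here. The NS-KO D0 libraries held 70818 and 46937 reads, the NS-KO D3 libraries 221446 and 127326, and the others 46973 to 275568. A count of 0 reads allows up to 3, which is 42.4 and 63.9 counts per 1000000 reads (CPM) in the D0 libraries and 13.5 and 23.6 CPM in the D3 libraries. These limits cover counting error only, since reads were not tagged as molecules. Levels are given as CPM of the tRNA reads of a library. Fold changes on the log2 scale come from limma after TMM scaling, with Benjamini-Hochberg adjustment over all features of a table and a threshold of 0.05. TMM scaling moved D3 up against D0 by 0.75 on the log2 scale relative to scaling by library size, and the median log2 change over all 281 sums by subtype and isodecoder was 0.12 with TMM and −0.58 with library size. Directions below were read under both.

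A nuclear tRNA gene is transcribed by RNA polymerase III until a run of T. The 5′ leader is then removed by RNase P and the 3′ trailer by RNase Z (ELAC2), and the trailer released is a tRF-1. Cuts in the mature tRNA give 5′ fragments (tRF-5a, tRF-5b and tRF-5c, from short to long, and the longest, tiRNA-5) or 3′ fragments (tRF-3a, tRF-3b and tiRNA-3). Fragments in none of these classes are listed as Other, among them those from the inside of a tRNA. Mitochondrial tRNAs are cut out of long transcripts of both strands of the mitochondrial genome and separate its rRNAs and mRNAs. NSUN2 writes 5-methylcytosine (m5C) on many cytosolic tRNAs and on some mitochondrial ones, and tRNAs without m5C are known to be cut more readily by angiogenin.

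The sequences on which the results turn are given first, 5′ to 3′, as perfect matches read from the deposited table. Positions of tRNAs and precursors are those that the table lists, and the genome build is not given in the sources used here. The first set holds the most abundant internal fragment at D3 of 6 mitochondrial tRNAs, the 3 with the most internal reads at D3 and the others with the largest fold. All genes are on chromosome M, and capitals mark bases of the anticodon where a fragment covers it.
mt-His-GTG (chrM:11545-11612, tRNA bases 18 to 49): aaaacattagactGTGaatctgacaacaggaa
mt-Gly-TCC (chrM:9391-9458, tRNA bases 34 to 67): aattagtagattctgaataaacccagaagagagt
mt-Ala-TGC (chrM:5018-5086, tRNA bases 38 to 58): aatagatgtaggatgaagtct
mt-Pro-TGG (chrM:15356-15422, tRNA bases 37 to 55): ctggtggtggggagtagct
mt-Cys-GCA (chrM:5192-5257, tRNA bases 25 to 47): aattGCAaattcgaaggtgtaga
mt-Asn-GTT (chrM:5089-5159, tRNA bases 17 to 38): atagggtatttagctGTTaact

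Trailers differ between gene copies whose mature tRNAs are the same, so a trailer read names its gene. The second set holds the most abundant trailer of the 6 gene copies with the largest rise and the 2 with the largest fall, with the listed position of each precursor. Capitals mark the final run of T.
tRNA-Asp-GTC-1-11 (chr13:21911273-21911424): tctggacacatgtggcTTTT
tRNA-Lys-TTT-2-2 (chr13:21907900-21908052): aaaggtgatcgTTT
tRNA-Gln-CTG-3-2 (chr3:96399019-96399170): ttggtgtcaggctagTTTT
tRNA-Gly-CCC-2-1 (chr3:96351127-96351277): gtacctctctgTTT
tRNA-Leu-TAA-3-1 (chr13:21847982-21848144): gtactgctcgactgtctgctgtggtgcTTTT
tRNA-Thr-AGT-6-1 (chr13:21249154-21249307): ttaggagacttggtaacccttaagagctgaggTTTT
tRNA-iMet-CAT-1-1 (chr3:90475820-90475971): tcggaggctttgTTTT
tRNA-Tyr-GTA-2-1 (chr5:30888043-30888211): ttcgtgcactacTTT

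The third set holds 5′ fragments of glycine tRNAs that differ between families. The shared form comes from Gly-GCC-2, Gly-GCC-3, Gly-GCC-4 and Gly-CCC-5. Counted from 1 at the 5′ end, Gly-GCC-1 differs from it by T5G, and Gly-CCC-2 by G9A and G15A. Capitals mark these positions.
shared glycine form: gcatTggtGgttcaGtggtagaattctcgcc
tRNA-Gly-GCC-1 (chr1:171066631-171066701): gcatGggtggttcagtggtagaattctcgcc
tRNA-Gly-CCC-2 (chr3:96351167-96351237): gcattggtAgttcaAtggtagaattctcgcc

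Of the 281 sums by subtype and isodecoder, 46 (16.4%) were higher and 19 (6.76%) lower at D3 than at D0 in NS-KO livers, 23.1% together. Scaled by library size, 27 (9.61%) rose and 30 (10.7%) fell, 20.3% together. The libraries of D3 lay above those of D0 without overlap in CPM for 56 sums (19.9%) and below them for 150 (53.4%). In WT livers the same comparison called 1 sum (0.356%), tRF-3b of Glu-TTC, which was higher. The change from D0 to D3 itself differed between genotypes for 36 sums (12.8%). The NS-KO log2 change minus the WT log2 change was positive for 31 (11%) and negative for 5 (1.78%). Scaled by library size these were 14 (4.98%) and 51 (18.1%), 23.1% together. A negative difference does not mean a weaker response, since falls in NS-KO livers, such as that of the tRF-1 of Met-CAT, are among the 5.

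Fragments from the inside of mitochondrial tRNAs rose most as a group. They start after the first base and end before the last, and made up 3.83% and 3.36% of the reads at D0 and 15.3% and 31.9% at D3. In the other 8 libraries they made up 0.718% to 4.43%, with 3.49% and 4.43% in NS-KO livers at D27. WT livers also had a higher share at D3, 2.0% and 1.46% against 0.718% and 0.789% at D0. Both NS-KO D3 libraries lay above the other 10, and NS-KO D3 replicate 2 held about 2 times the share of replicate 1. With 2 libraries against 2, an exact permutation test cannot give a p below 0.333, so shares are described and were not tested.

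**Figure D1:**
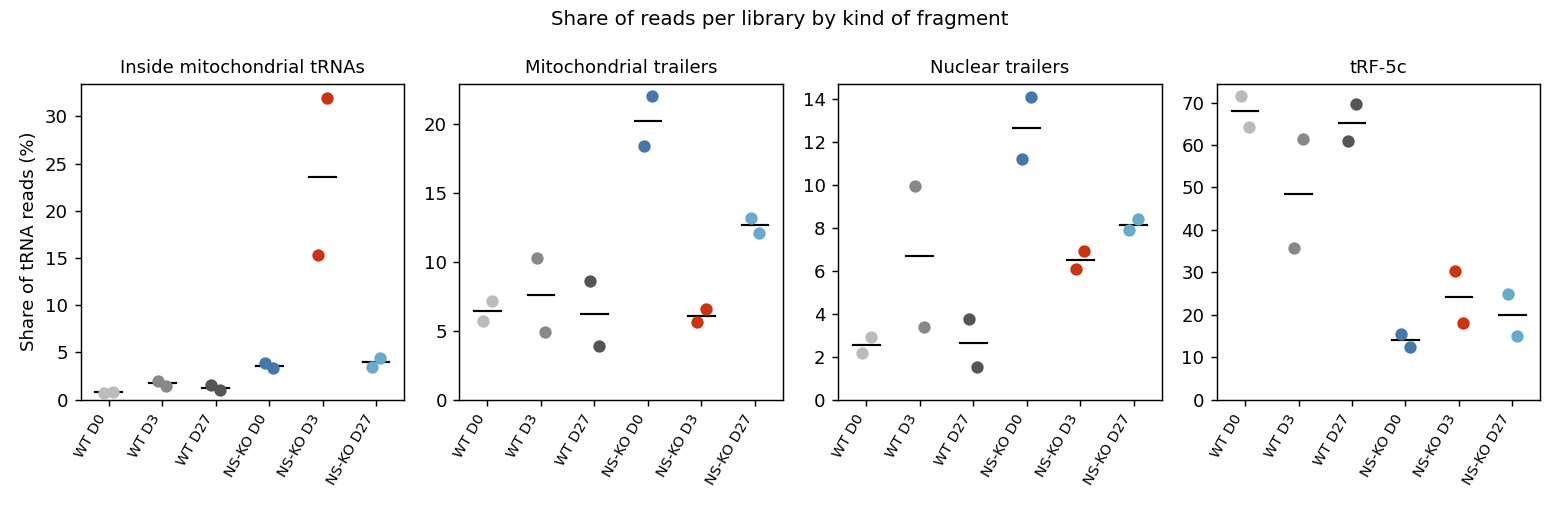
Share of the tRNA reads of each library (percent, vertical axis) that came from the inside of mitochondrial tRNAs, from mitochondrial trailers, from nuclear trailers and from tRF-5c, by group (horizontal axis); points are libraries and bars the mean of 2. The internal mitochondrial share at NS-KO D3 (15.3% and 31.9%) lies above all other libraries, while the share of mitochondrial trailers fell from 18.4% and 22.0% to 5.65% and 6.53%.

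All 53 sums of mitochondrial tRNAs were tested within the 281, of which 16.4% were higher and 6.76% lower. Of the 53, 24 were higher and 0 lower, with a median log2 change of 1.25. Scaled by library size, 14 passed upwards and 3 downwards, with a median of 0.58. Of the 23 sums listed as Other, 16 were higher and 0 lower, with a median of 1.93, and of the 30 sums of named subtypes 8 were higher and 0 lower, with a median of 0.79. The NS-KO log2 change minus the WT log2 change passed as positive for 19 of the 53 and as negative for 0.

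The histidine tRNA mt-His-GTG, which lies between Nd4 and the serine tRNA mt-Ser-GCT, gave the most reads of this kind. Its fragments listed as Other stood at 6623 and 6626 CPM at D0 and at 59288 and 148595 CPM at D3, 15.7 times the mean. The 2 D0 libraries were nearly equal, and both D3 libraries were far above them. The log2 change was 4.57 ± 0.38 (SE; limma, adjusted p = 5.2e-05), and it exceeded the WT change by 4.36 (adjusted p = 0.0017). Internal reads alone rose from 5225 and 4900 CPM to 57820 and 145909 CPM, against 1491 to 17839 CPM in the other 8 libraries.

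Fragments of mt-Ala-TGC rose from 734.3 and 660.5 CPM to 10675 and 25038 CPM, a log2 change of 5.25 ± 0.61 (adjusted p = 0.00022). Those of mt-Pro-TGG rose from 593.1 and 426.1 CPM to 6552 and 12001 CPM (4.82 ± 0.37, adjusted p = 4.8e-05). Those of mt-Cys-GCA rose from 607.2 and 596.5 CPM to 7004 and 15362 CPM (4.8 ± 0.62, adjusted p = 0.00035). These alanine, proline and cysteine tRNAs are encoded on the light strand, opposite to most mitochondrial genes. So is mt-Asn-GTT, whose fragments rose from 282.4 and 191.7 CPM to 2488 and 5066 CPM (4.54 ± 0.40, adjusted p = 6.4e-05). Short 5′ fragments of 2 more light strand tRNAs were among the largest rises. tRF-5b of mt-Ser-TGA went from 169.4 and 234.4 CPM to 2294 and 5576 CPM (4.75 ± 0.51, adjusted p = 0.00018), and tRF-5b of mt-Gln-TTG from 70.6 and 127.8 CPM to 876.1 and 1555 CPM (4.04 ± 0.49, adjusted p = 0.00027).

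Among the heavy strand tRNAs, fragments of mt-Gly-TCC rose from 15236 and 14381 CPM to 25555 and 44241 CPM (1.93 ± 0.30, adjusted p = 0.0011). This rise did not pass by library size only (1.18, adjusted p = 0.075). The most abundant mitochondrial sum, Other fragments of mt-Ser-GCT, stood at 182694 and 138377 CPM at D0 and at 111707 and 102053 CPM at D3. Its log2 change of 0.18 ± 0.37 did not pass (adjusted p = 0.76). Most of these reads began at the first base of the tRNA, led by aagaaagattgcaagaactgct with 34370 and 27249 CPM at D0 and 17246 and 13752 CPM at D3.

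For 19 of the 21 mitochondrial tRNAs listed, internal reads of both D3 libraries lay above all other 10. The exceptions were mt-Leu-TAA, at 3234 and 3814 CPM and then 2285 and 3181 CPM, below D0, and mt-Ser-GCT, at 16662 and 12314 CPM and then 13669 and 5396 CPM, which overlapped. Divided by strand after the values had been seen, the 7 light strand tRNAs had a median fold in CPM of 29.8 (5.63 to 39.8) and the 14 heavy strand tRNAs one of 4.33 (0.658 to 20.8). Summed over the light strand, internal reads went from 6072 and 5710 CPM to 50988 and 109216 CPM. Summed over the heavy strand they went from 32209 and 27910 CPM to 101745 and 209643 CPM, of which mt-His-GTG was the larger part at D3. No test was made of the difference between strands.

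**Figure D2:**
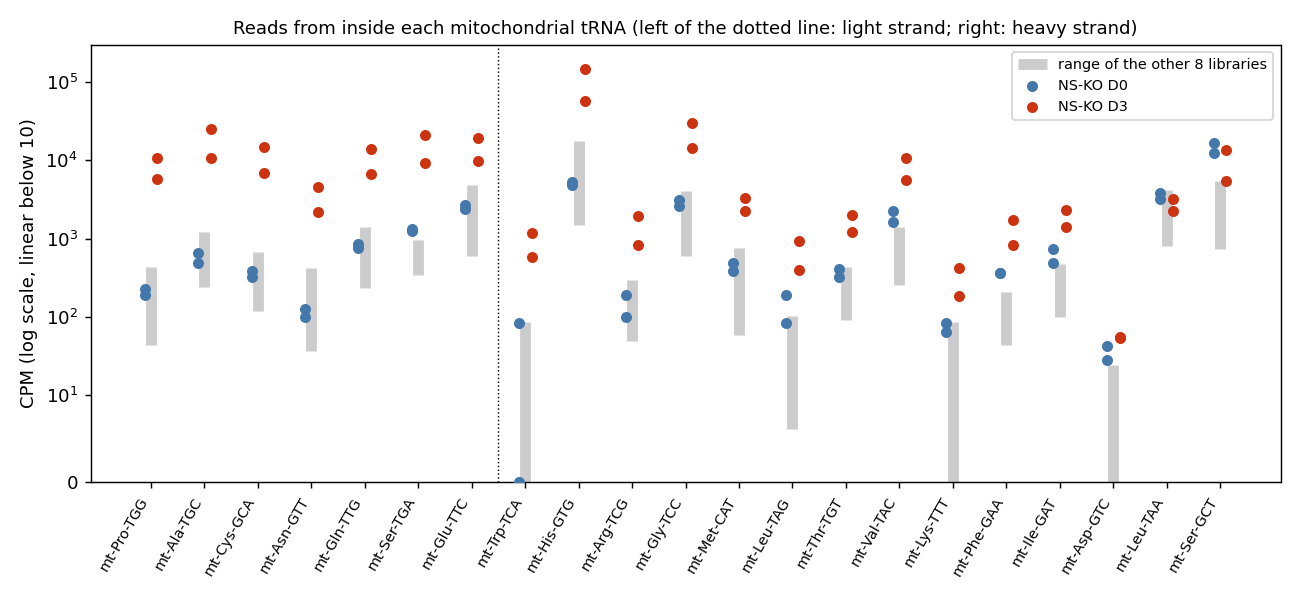
CPM (vertical axis, log scale and linear below 10) of reads from the inside of each of the 21 mitochondrial tRNAs (horizontal axis, by strand and fold), with points for the 2 NS-KO D0 and 2 NS-KO D3 libraries and grey bars for the range of the other 8. The D3 points lie above the grey bars and above the D0 points for 19 tRNAs, and not for mt-Leu-TAA and mt-Ser-GCT.

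At the ends of these tRNAs the folds were smaller. Reads at the 5′ end were above D0 without overlap for 9 of 21 tRNAs and below for 5, with a median fold of 1.53. Reads at the 3′ end were above for 13 and below for 4, with a median fold of 1.76. Position and length were also tested as 355 sums by origin, region and length, of which 102 (28.7%) were higher and 22 (6.2%) lower, 34.9% together. Scaled by library size these were 63 (17.7%) and 47 (13.2%), 31.0% together. Internal mitochondrial reads that start before the anticodon were higher at all 27 lengths from 14 to 40 nt, with a median log2 change of 4.45 and the largest, 5.83, at 32 nt. Those that start at or after the anticodon were higher at all 25 lengths tested, with a median of 3.03. By library size only, 23 of the 27 and 24 of the 25 passed. Internal reads of nuclear tRNAs did not rise in this way. Of their 50 sums by length 0 passed in limma with TMM (0 higher and 2 lower at an unadjusted p under 0.05). The medians were 0.061 before the anticodon and 0.056 from it on. By library size only, 1 sum before the anticodon and 4 from it on were lower and 0 were higher. Both medians were then −0.69. The share of nuclear internal reads in both D3 libraries (8.36% and 7.07%) lay below that in both D0 libraries.

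Coverage along the tRNA moved in mt-His-GTG. Its anticodon is at bases 31 to 33, and the bases covered at 50% or more of the highest base ran from 32 to 66 at D0 and from 19 to 50 at D3. The highest base was 32 at D3, and its coverage went from 9212 to 104282 CPM. Reads starting at base 18 went from 381.3 and 340.9 CPM to 9244 and 23051 CPM. Distinct internal sequences of this tRNA numbered 351 at D0 and 4595 at D3, in libraries that were deeper at D3. In mt-Ala-TGC the covered stretch kept its place, bases 39 to 58 at D0 and 38 to 57 at D3, and its highest coverage went from 637 to 17772 CPM. The stretch began at nearly the same base in mt-Gly-TCC, 34 to 71 and then 34 to 67, and in mt-Glu-TTC, 38 to 71 and then 37 to 64. It narrowed in mt-Pro-TGG, 1 to 69 and then 35 to 57, and in mt-Cys-GCA, 1 to 54 and then 25 to 53. In mt-Asn-GTT it was 1 to 53 and then 16 to 37.

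**Figure D3:**
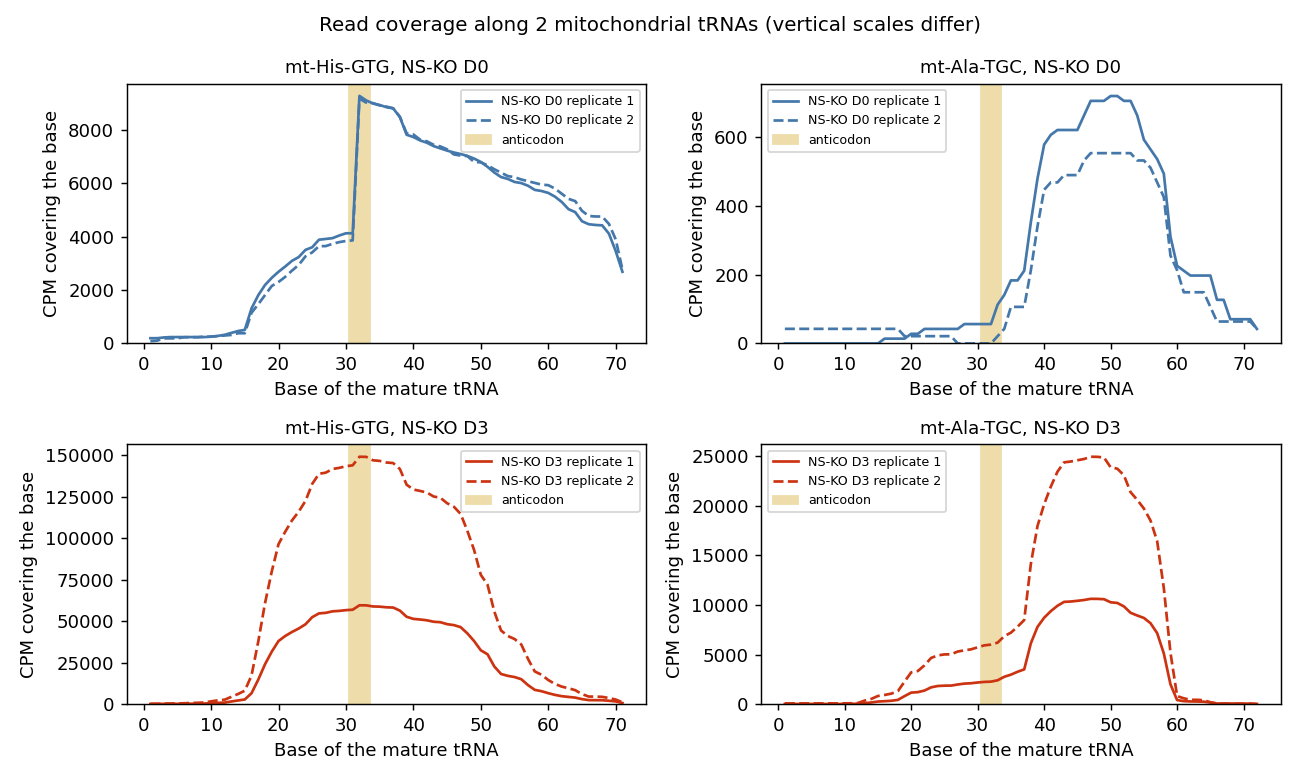
CPM of reads covering each base (vertical axis, scales differ) of the mature mt-His-GTG and mt-Ala-TGC (horizontal axis, base from the 5′ end) in each NS-KO D0 library (upper) and NS-KO D3 library (lower), with the anticodon shaded. In mt-His-GTG the stretch of high coverage moved from bases 32 to 66 to bases 19 to 50, and in mt-Ala-TGC it stayed around bases 38 to 58.

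The printed fragments follow these sums. The mt-His-GTG fragment had 0 reads in both D0 libraries and 812.8 and 2223 CPM at D3, against at most 69.5 CPM in the other 8 (log2 change 6.47 ± 0.63, limma adjusted p = 0.0001). The mt-Cys-GCA fragment had 0 reads at D0 and 433.5 and 840.4 CPM at D3 (5.34 ± 0.42, adjusted p = 5.6e-05), and the mt-Ala-TGC fragment 70.6 and 21.3 CPM and then 749.6 and 1508 CPM (4.75 ± 0.69, adjusted p = 0.00057). Both were above all other libraries at D3. The printed fragments were picked as the most abundant at D3, and that of mt-Cys-GCA passed the filter on low values only through D3. Their p-values are therefore a description. Over all 22065 single fragments tested, 2168 (9.83%) were higher and 176 (0.798%) lower, 10.6% together. In WT livers 0 passed the same limma test, with 235 higher and 416 lower at an unadjusted p under 0.05. Of those higher, 1746 had 0 reads in both D0 libraries, which were the shallower. With at least 10 reads required in each of 2 libraries, 677 were higher and 72 lower of 2273. Of the 1884 higher that were mitochondrial, 1564 had 0 reads at D0 and passed the filter on low values only through other libraries, so their number is a description.

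Mitochondrial trailers moved differently. These are reads just past the 3′ end of a tRNA, and they made up 18.4% and 22.0% of the reads at D0 and 5.65% and 6.53% at D3, against 3.85% to 13.2% in the other 8 libraries. Most at D0 came from mt-Val-TAC. The tRNAs mt-Val-TAC and mt-Phe-GAA precede the mitochondrial rRNA genes. Past mt-Val-TAC, where mt-Rnr2 (the large rRNA) begins in RefSeq, reads fell from 151374 and 191512 CPM to 36537 and 40220 CPM. Past mt-Phe-GAA, where mt-Rnr1 (the small rRNA) begins, they stood at 2923 and 2855 CPM and then at 5789 and 10406 CPM, above all other 10 libraries. The most abundant read of each was:
past mt-Val-TAC (chrM:1094-1114): actaatcctagccctagccct
past mt-Phe-GAA (chrM:70-87): aaaggtttggtcctggcc
The first fell from 32082 and 42440 CPM to 5527 and 6102 CPM (−1.91 ± 0.19, limma adjusted p = 0.0001), and the second rose from 183.6 and 234.4 CPM to 1355 and 2521 CPM (3.75 ± 0.58, adjusted p = 0.0009). By length, mitochondrial trailers were lower for 10 of 27 sums (20 to 27, 34 and 40 nt) and higher for 1 (18 nt). With library size scaling 11 were lower and 0 higher, and the value at 18 nt was 1.01 (adjusted p = 0.15). The whole Other sum of mt-Val-TAC did not pass with TMM (−1.0 ± 0.36, adjusted p = 0.075) and was lower by library size only (−1.75, adjusted p = 0.0047).

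Trailers of nuclear tRNAs fell as a share of all reads, from 11.2% and 14.1% to 6.11% and 6.92%, while those of some genes rose many-fold. tRF-1s were 8.70% and 10.7% of the reads at D0 and 4.30% and 4.97% at D3. Of the 26 tRF-1 sums by isodecoder, 8 were higher and 1 lower, with a median log2 change of 0.5 (5 and 2 with a median of −0.2 by library size only). Over all 281 sums 16.4% were higher and 6.76% lower. tRF-1s of Asp-GTC stood at 225.9 and 383.5 CPM at D0 and 3775 and 4155 CPM at D3 (4.38 ± 0.48, limma adjusted p = 0.0002). tRF-1s of Gly-CCC stood at 0 and 85.2 CPM and then 424.5 and 620.5 CPM (4.08 ± 0.58, adjusted p = 0.00071), and those of Gln-CTG at 28.2 and 42.6 CPM and then 532.9 and 620.5 CPM (4.03 ± 0.47, adjusted p = 0.00022). In all of these the D3 libraries were close to each other and far above D0. The sum of Gly-CCC would not have passed the filter on low reads without the D3 libraries.

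The tRF-1 of Met-CAT fell, the single one with TMM, while scaled by library size that of mt-Gly-TCC passed too (−1.95). It was the most abundant tRF-1, at 47813 and 62616 CPM at D0, and stood at 10404 and 15480 CPM at D3 (−1.35 ± 0.28, adjusted p = 0.006). Its change differed from that in WT livers by −1.55 (adjusted p = 0.027). Without D0 replicate 2 the fall was −1.22 and did not pass (adjusted p = 0.055).

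Of the 36859 reads of nuclear trailers in the 4 libraries, 36704 (99.6%) matched a single gene copy, so the tRF-1s could be followed by gene. Of 239 copies with a trailer read, 70 were tested, and 23 (32.9%) were higher and 3 (4.29%) lower, 37.1% together. Scaled by library size these were 14 (20%) and 3 (4.29%), 24.3% together. This table was made after the values by isodecoder had been seen. Some copies passed the filter on low reads only through the D3 libraries, so the counts of rises are a description. Copies within 500 kb of each other were joined to 155 clusters. Of the 7 clusters with 3 or more tested copies, 4 held a copy that was higher. These were chr1:171033902-171111555 (5 of 6 copies higher), chr3:96311214-96501558 (6 of 8), chr13:21160745-22050807 (8 of 12) and chr13:23270381-23530459 (2 of 6). In the last of these the share was near that of all copies tested, 3 of its copies lay below D0, and scaled by library size 0 of 6 passed, with a median of −0.057.

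Together 21 of 32 copies in these 4 clusters were higher and 0 lower, with a median log2 change of 2.18. Of the 38 copies elsewhere 2 were higher and 3 lower, with a median of −0.021. By library size only, the counts were 14 of 32 with a median of 1.63, and 0 higher and 3 lower of 38 with a median of −0.76. Since the clusters were picked by these rises, the split is a description and no test was made of it. The clusters without a rise included 9 tested copies on chromosome 11 (chr11 from 69036963, near Ctc1, Aurkb and Per1), with a median of 0.13, 4 more on chromosome 11 from 97702409, and 3 histidine copies on chromosome 2 from 122375454.

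The share of trailer reads that came from the 4 clusters is given as a description, since the clusters were picked by the rises in these libraries. In the D0 libraries it was 6.57% and 6.35%, in the D3 libraries 28.2% and 25.9%, in those of D27 11.1% and 8.94%, and in the 6 WT libraries 5.46% to 6.48%. In CPM the clusters went from 7272 and 8820 to 16862 and 17498, and all other copies from 103335 and 130004 to 42841 and 49974. The trailers of 19 copies (27.1% of those tested) were above all other 10 libraries at D3.

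**Figure D4:**
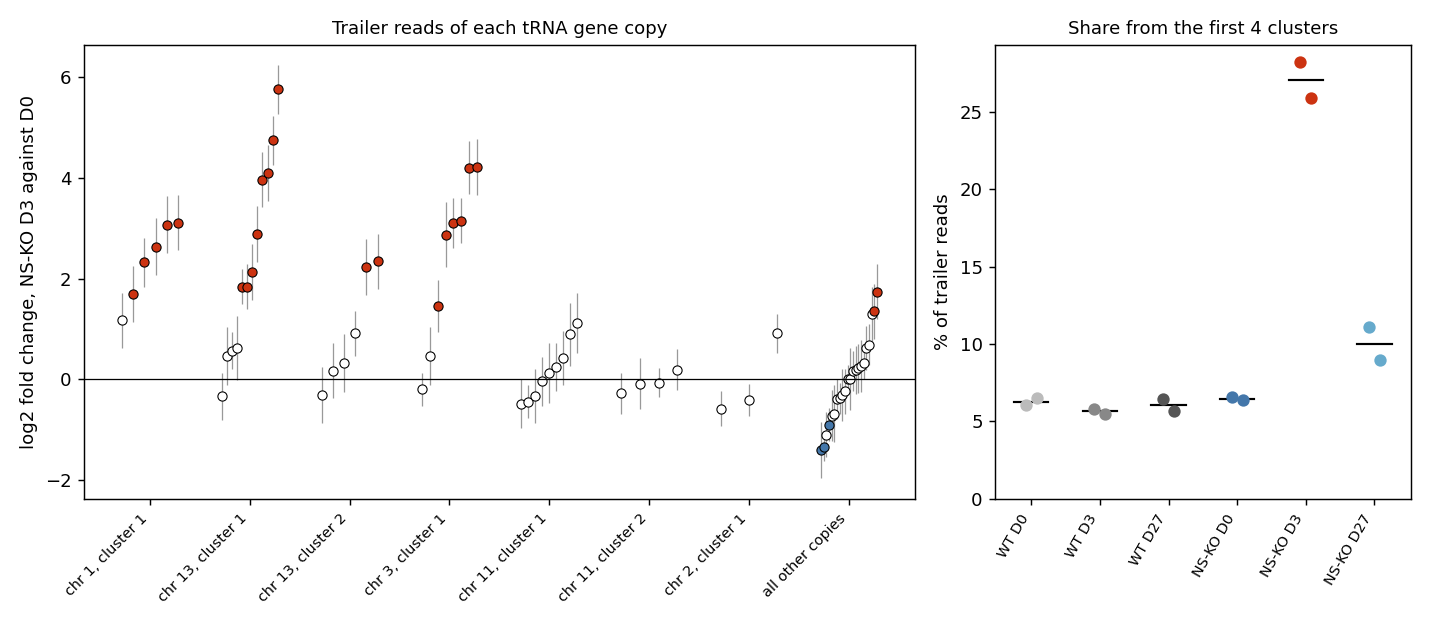
Left, log2 fold change of trailer reads at NS-KO D3 against D0 (vertical axis; points are gene copies, lines the SE) for the 7 clusters with 3 or more tested copies and for all other copies (horizontal axis); red is higher, blue lower and white not past the threshold. Right, percent of nuclear trailer reads from the first 4 clusters in each library, with bars for the mean of 2; the clusters were picked by the rises at NS-KO D3, whose libraries stand at 28.2% and 25.9%.

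Among single copies, tRNA-Asp-GTC-1-11, near Zfp184 on chromosome 13, rose from 56.5 and 85.2 CPM to 2944 and 3126 CPM (5.75 ± 0.48, adjusted p = 2.6e-11). Its neighbour tRNA-Lys-TTT-2-2 had 0 reads in both D0 libraries and 374.8 and 416.3 CPM at D3, at least 7.44-fold higher than the limit that 3 reads per library allow (adjusted p = 2.5e-09). tRNA-Leu-TAA-3-1, near H4bc24, rose from 28.2 and 106.5 CPM to 803.8 and 871.8 CPM (4.09 ± 0.56, adjusted p = 4e-07). tRNA-Thr-AGT-6-1 rose from 14.1 and 0 CPM to 406.4 and 196.3 CPM (3.96 ± 0.54, adjusted p = 4e-07). For each, the lower D3 library was above both D0 libraries. Lys-TTT-2-2 and Thr-AGT-6-1 passed the filter on low reads only through the D3 libraries. The same holds for Gly-CCC-2-1, His-GTG-3-1, His-GTG-1-1, Asp-GTC-1-3, Asp-GTC-1-1 and Asp-GTC-1-2, given below. The p-values of such copies are therefore a description.

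On chromosome 3, tRNA-Gln-CTG-3-2 rose from 28.2 and 42.6 CPM to 564.5 and 746.1 CPM (4.21 ± 0.55, adjusted p = 2.3e-07), and tRNA-Gly-CCC-2-1 from 0 and 63.9 CPM to 415.5 and 604.7 CPM (4.20 ± 0.52, adjusted p = 1.1e-07). In this cluster 4 tested copies carry the histidine anticodon GTG. His-GTG-3-1 rose from 0 and 21.3 CPM to 153.5 and 180.6 CPM (3.15 ± 0.45, adjusted p = 7.2e-07). His-GTG-1-1 had 0 reads at D0 and 121.9 and 110 CPM at D3, at least 2.18-fold higher, and His-GTG-2-4 also passed (2.87 ± 0.64), while His-GTG-2-7 did not (−0.20 ± 0.33). Among the aspartate copies on chromosome 1, Asp-GTC-1-3, Asp-GTC-1-1 and Asp-GTC-1-2 rose by 3.07, 2.63 and 2.32 on the log2 scale, and Asp-GTC-1-5 did not pass (1.17, adjusted p = 0.092).

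The 3 copies that were lower lay outside the clusters. tRNA-iMet-CAT-1-1, an initiator methionine gene near Ilf2 and the source of the main tRF-1 of Met-CAT, went from 49422 and 65045 CPM to 10811 and 16100 CPM (−1.35 ± 0.26, adjusted p = 8.1e-05). tRNA-Arg-ACG-3-1 went from 8585 and 10844 CPM to 2118 and 4437 CPM (−0.90 ± 0.33, adjusted p = 0.032), and tRNA-Tyr-GTA-2-1 from 197.7 and 234.4 CPM to 22.6 and 62.8 CPM (−1.40 ± 0.56, adjusted p = 0.049). The tyrosine call lies close to the threshold and rests on 14 and 11 reads at D0 and 5 and 8 reads at D3. The arginine call was lost on leaving out 3 of the 4 libraries in turn, and scaled by library size, where the fall was larger (−1.65, adjusted p = 0.068).

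The tRF-1 lists of the study were chosen on these samples and are no independent evidence. Of the tRF-1s of the 9 isodecoders that it names, 2 were higher (Ile-AAT and Val-CAC), 1 was lower (Met-CAT) and 6 did not pass, with a median of 0.49 (0 higher and 1 lower by library size only). Of its 68 single tRF-1s, 67 were found and 62 tested. Of these 29 were higher and 0 lower, with a median of 1.26. Over all single fragments 9.83% were higher, and over all single tRF-1s 7.83%. Some of the 29 had 0 reads at D0 and passed the filter on low values only through D3, so their number is a description. tRF-Gln-CTG-026, the printed Gln-CTG-3-2 trailer without its last T, had 0 reads in both D0 libraries and in the other 8, and 5 and 6 reads at D3 (22.6 and 47.1 CPM). It was called higher in limma (1.67 ± 0.31, adjusted p = 0.0029), but it passed the filter on low values only through D3. A count of 0 reads allows up to 42.4 and 63.9 CPM in the D0 libraries. The D3 value of 22.6 CPM lies below both limits, and that of 47.1 CPM lies between them. The call is therefore no evidence of a rise at this depth.

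Among 5′ fragments, those of certain glycine and valine families rose while the most abundant did not pass. Gly-GCC and Glu-CTC give most 5′ fragments of mouse liver. tRF-5c listed under both Gly-CCC and Gly-GCC stood at 84414 and 70179 CPM at D0 and 131228 and 68423 CPM at D3 (1.05 ± 0.75, adjusted p = 0.36), and tRF-5c of Glu-CTC at 31532 and 21731 CPM and then 45677 and 28973 CPM (1.23 ± 0.83, adjusted p = 0.32). In both, the D3 libraries lay far apart from each other. tRF-5c as a whole was 15.4% and 12.5% of reads at D0 and 30.4% and 18.0% at D3.

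tRF-5c of Gly-CCC alone rose from 734.3 and 490 CPM to 26639 and 15182 CPM, 34.2 times, with a log2 change of 5.76 ± 0.67 (adjusted p = 0.00022). Its tiRNA-5 rose from 155.3 and 106.5 CPM to 5211 and 2333 CPM (5.25 ± 0.84, adjusted p = 0.0014). tRF-5c of Gly-GCC alone rose from 8628 and 7116 CPM to 59012 and 31769 CPM (3.21 ± 0.64, adjusted p = 0.0047). The printed 31 nt forms separate these by family. The shared form stood at 21294 and 14253 CPM and then 25049 and 14742 CPM (0.89 ± 0.51, adjusted p = 0.33), the Gly-GCC-1 form at 2330 and 1577 CPM and then 12459 and 7712 CPM (3.09 ± 0.51, adjusted p = 0.0014), and the Gly-CCC-2 form at 183.6 and 127.8 CPM and then 4651 and 2670 CPM (5.05 ± 0.75, adjusted p = 0.00064). The shared form, against which they differ by 1 and 2 bases, was thus nearly level in CPM while they rose.

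Reads of 5′ fragments were grouped by the set of families they match, and 49 groups had 100 reads or more. In 7 groups all gene copies lie in the clusters, and 6 of these were above D0 without overlap, with a median fold in CPM of 6.14. In 32 groups some copies do, 7 were above and 11 below, with a median of 0.988 and a highest fold of 9.54, in the group that Gly-GCC-1 shares with Gly-GCC-5 and Gly-GCC-6. In 10 groups none do, 2 were above and 2 below, with a median of 1.01. Over all 49 groups 15 were above and 13 below, with a median of 1.09. The clusters were chosen on the trailers of the same libraries, and no test was made.

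Gly-CCC-2, a single gene on chromosome 3, went from 1412 and 1065 CPM to 49768 and 21386 CPM, a fold of 28.7. Val-AAC-4 went from 254.2 and 213.1 CPM to 2809 and 2262 CPM, and Val-CAC-1 from 381.3 and 191.7 CPM to 2448 and 2584 CPM. Both are single genes within one cluster of chromosome 13, at chr13:23298781-23298853 and chr13:23307629-23307701, and their leading 5′ fragments differ at 1 base.
tRNA-Val-AAC-4: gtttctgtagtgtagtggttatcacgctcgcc
tRNA-Val-CAC-1: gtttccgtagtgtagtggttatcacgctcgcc
Gly-GCC-1 went from 7922 and 6242 CPM to 56519 and 30489 CPM, while the other 8 libraries reached up to 55602 CPM. Val-AAC-5, with its gene in the clusters too, stood at 522.5 and 617.8 CPM and then 569 and 541.9 CPM. Outside them, Gly-GCC-6 and Val-AAC-1 were above D0.

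**Figure D5:**
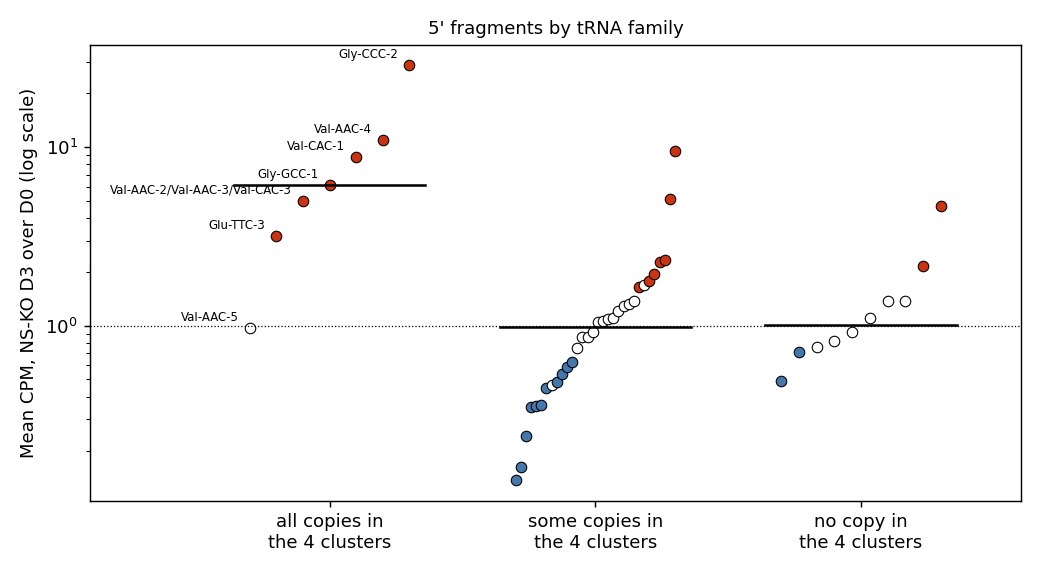
Mean CPM of 5′ fragments at NS-KO D3 over D0 (vertical axis, log scale) for 49 groups of tRNA families, by whether all, some or none of their gene copies lie in the 4 clusters (horizontal axis); red is above and blue below D0 without overlap, white overlaps, and bars are medians. The groups with all copies in the clusters have a median of 6.14, the others medians of 0.988 and 1.01.

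5′ fragments of nuclear tRNAs made 65 sums, of which 10 rose and 5 fell, again near the 16.4% and 6.76% over all sums, with a median log2 change of 0.55 (6 and 7 with 0.024 by library size only). Among the 12 such sums that name Gly-GCC or Glu-CTC, 1 rose and 1 fell. Of the 13 sums of any subtype that name Gly-CCC, 4 were higher and 0 lower, against 16.4% and 6.76% over all sums. Of the 32 sums of tRNAs that DNMT2 methylates, a second m5C enzyme with Asp-GTC, Gly-GCC and Val-AAC as targets, 6 were higher and 1 lower, a share near the 16.4% and 6.76% over all 281 sums, with a median of 0.4 (4 and 2 with −0.2 by library size only). Of the 8 sums of Leu-CAA, which holds an NSUN2 site in its anticodon loop, 0 were higher and 3 lower, with a median of −0.3. By library size only these were 0 and 2 with −1.03. The shares over all sums were those given above, 16.4% and 6.76% with TMM.

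Among the falls of nuclear tRNAs were short 5′ fragments of leucine, lysine and glutamate tRNAs and 3′ fragments. tRF-5b listed under Leu-CAA and Leu-CAG went from 310.7 and 404.8 CPM to 36.1 and 47.1 CPM (−1.99 ± 0.35, adjusted p = 0.0022), and tRF-5b of Leu-CAG from 706 and 724.4 CPM to 108.4 and 110 CPM (−1.82 ± 0.34, adjusted p = 0.0037). Both changes differed from those in WT livers, by −2.15 (adjusted p = 0.015) and −1.91 (adjusted p = 0.027). tRF-5a of Lys-CTT went from 649.6 and 894.8 CPM to 180.6 and 102.1 CPM (−1.62 ± 0.39, adjusted p = 0.014), and passed no longer without D0 replicate 2 (adjusted p = 0.089). tRF-5b of Lys-TTT and tRF-5a of Glu-CTC and Glu-TTC also passed, and lost the call without any 1 of the 4 libraries and without 3 of them, respectively.

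3′ fragments of nuclear tRNAs made 55 sums, of which 1 rose and 9 fell, with a median of −0.58 (0 and 13 with −1.22 by library size only). Over all 281 sums the shares were 16.4% and 6.76%. All 9 were tRF-3a, the short class. tRF-3a of Thr-TGT went from 1073 and 1470 CPM to 289 and 314.2 CPM (−1.26 ± 0.22, adjusted p = 0.0024), and tRF-3a listed under Ala-AGC and Ala-TGC from 917.8 and 1257 CPM to 252.9 and 267 CPM (−1.25 ± 0.21, adjusted p = 0.0021). In both the D3 libraries were close to each other and below D0. Others were tRF-3a of Leu-CAG, Cys-GCA and Gln-CTG. Of the 21 sums of tRF-3b 0 passed in limma, and 0 at an unadjusted p under 0.05, with a median of −0.54. tRF-3a was 2.71% and 3.06% of the reads at D0 and 1.48% and 1.47% at D3. None of the named tRF-3a falls differed from the WT change past the threshold.

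Reads became longer. Their mean length was 24.7 and 24.4 nt at D0 and 27.4 and 26.4 nt at D3. Reads of 30 to 33 nt, the length of tRF-5c, went from 22.3% and 18.1% to 38.4% and 29%, and reads of 20 to 25 nt from 31.9% and 33.6% to 18.6% and 21.4%. Internal mitochondrial reads lengthened from a mean of 23.1 and 23.8 nt to 26.4 and 27.2 nt. Nuclear 5′ sums were higher at 15, 30 and 34 nt and lower at 14, 22, 24 and 25 nt, and nuclear trailers were higher at 20, 21, 26 and 27 nt and lower at 16 nt, the length of the initiator methionine trailer. With library size scaling 1 nuclear 5′ length (30 nt) passed upwards and 9 downwards, and 0 trailer lengths upwards and 2 downwards. tRF-1s averaged 17.8 and 17.7 nt at D0 and 20 and 18.4 nt at D3.

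The number of tsRNAs with a CPM of at least 20 was 4259 and 9758 at D0 and 4353 and 5590 at D3. The D0 libraries differed by more than the groups, and the threshold is 1 read in the shallower one. With each library thinned to 46937 reads, D3 held 2478 more, so no direction is given.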

How the data were processed

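Small RNA libraries of mouse liver were treated before ligation so that methyl groups and end modifications did not stop reads. Per the study's methods and the submitters' processing notes, the authors trimmed reads with cutadapt and kept lengths of 14 to 40 nt. Bowtie placed these with up to 1 mismatch on mature tRNAs and, failing that, on precursors; FastQC was also used, and versions are not given in the sources used here. The deposited table lists whole-number reads of each sequence under every tRNA that it matched. Each sequence was counted once here; 17.6% of the reads of the 4 NS-KO libraries fell under more than 1 isodecoder and were summed under the joint name, and 56.1% matched perfectly. Groups came from the labels.

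Sums were kept where at least 2 libraries reached the CPM of 10 reads at the median library size. This filter on low reads also required a minimum of reads over all libraries. These sums, and fragments with a CPM of at least 20 in 1 library, were tested with limma 3.58.1 (R 4.3.3). The test used log2 CPM with TMM factors, a prior count of 2 and a trend. One fit held the 12 libraries in 6 groups, which left 6 residual degrees of freedom. The fit was tested on simulated data. Named sums were the 10 with the most reads and, past the threshold, the 12 largest rises and falls without overlap; named fragments were the 10 most abundant, the most abundant of each subtype and the 5 smallest p-values in each direction. A gene list of the authors was matched by name. Members and lists were chosen with earlier results of these data known. Sequences came from the deposited table and neighbouring genes from RefSeq (GRCm38.p6). Other scaling, filters, weights, read matching, a replicate block and leaving out each library were tried. Tables used Python 3.11.15, numpy 2.4.6, pandas 2.3.3, scipy 1.17.1 and matplotlib 3.10.9.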

Additional observations from a re-analysis of the deposited data

Results flagged for a closer look

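For 17 of the named sums the change from D0 to D3 differed between NS-KO and WT livers in limma's interaction contrast. Most named sums were picked by the size of the NS-KO change, which is part of this contrast. Their number is therefore a description, and over all 281 sums 36 (12.8%) passed. Values are the NS-KO log2 change minus the WT log2 change, with p adjusted over the 281 sums. All rest on 2 libraries per group, and the WT D3 libraries differed from each other (tRF-5c was 35.6% and 61.5% of their reads). By library size only the overall split of this contrast turned, from 31 positive and 5 negative to 14 and 51.

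Among mitochondrial sums, the difference was 4.96 for fragments listed as Other of mt-Pro-TGG (adjusted p = 0.00086), whose WT change was −0.13. It was 4.58 for mt-Ala-TGC (adjusted p = 0.0086), 4.38 for mt-Cys-GCA (adjusted p = 0.0093), 4.36 for mt-His-GTG (adjusted p = 0.0017), 3.58 for mt-Asn-GTT (adjusted p = 0.004) and 2.17 for mt-Gly-TCC (adjusted p = 0.0092). The WT changes of these 5 lay between −0.23 and 0.95. For tRF-5b the difference was 4.62 in mt-Ser-TGA (adjusted p = 0.004) and 4.11 in mt-Gln-TTG (adjusted p = 0.0052).

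Among glycine tRNAs, the difference was 6.34 for tRF-5c of Gly-CCC (adjusted p = 0.0037), 5.67 for its tiRNA-5 (adjusted p = 0.01), 3.88 for its tRF-1 (adjusted p = 0.011) and 4.04 for tRF-5c of Gly-GCC (adjusted p = 0.013). The WT changes were −0.59, −0.41, 0.20 and −0.83. The tRF-1 sum of Gly-CCC would not have passed the filter on low reads without the D3 libraries, so its p-value is a description. For the tRF-1s of Gln-CTG and Asp-GTC the difference was 3.55 (adjusted p = 0.0086) and 3.15 (adjusted p = 0.012).

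For 3 sums that fell in NS-KO livers, the WT change after TMM scaling was 0.19, 0.094 and 0.15; in CPM, tRF-1 of Met-CAT went in WT livers from 8396 and 10459 to 33638 and 12085, and tRF-5b of Leu-CAG from 116.4 and 99.1 to 245.4 and 191.3. The difference was −1.55 for tRF-1 of Met-CAT (adjusted p = 0.027), −1.91 for tRF-5b of Leu-CAG (adjusted p = 0.027) and −2.15 for tRF-5b of Leu-CAA and Leu-CAG (adjusted p = 0.015).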

How the results depend on the processing

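The shallow D0 libraries and the choice of scaling both limit what can be seen. The 12 largest rises passed under every setting that was run, and the rise of mt-Gly-TCC lost its call by library size. Calls among the 281 sums numbered 65, and by library size 27 were higher and 30 lower in place of 46 and 19; leaving out 1 library gave 43 to 69, the lowest without D0 replicate 2. For the difference between genotypes library size gave 65 calls in place of 36, and leaving out 1 library 26 to 49. Sums by position and length gave 124 calls (79 to 140 without 1 library). Trailers by gene copy, a table added after the data had been seen, gave 26 calls, 17 by library size and 19 to 26 without 1 library. Single fragments gave 2344 calls, but 749 under the stricter filter, 649 after thinning, 1324 to 4918 without 1 library and 0 in limma with the NS-KO libraries alone, where 1738 were higher and 361 lower at an unadjusted p under 0.05. Voom weights gave 64 calls of sums and TMM factors from single sequences, added later, 55.

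The number of expressed tsRNAs differed by −2037 on average (D3 minus D0), while D3 was higher by 2478 after thinning, by 659 after thinning with at least 2 reads, by 201.5 at a CPM of 50 and by 114 at a CPM of 100; leaving out 1 library gave −4786 to 712.5. In percentage points, D3 minus D0 was 20 for internal mitochondrial reads (11.7 to 28.3 without 1 library), −14.1 for mitochondrial trailers (−15.9 to −12.3), 10.2 for tRF-5c (4.07 to 16.4), 13.5 for reads of 30 to 33 nt (8.78 to 18.2) and −5.09 for tRF-1 (−6.11 to −4.07, and −6.42 with perfect matches alone).

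Replicates of a number shared only that number: the correlation of their deviations ran from −0.164 to 0.318, over 0.1 in 1 of 15 pairs of groups. With the replicate block the calls were 61 sums, 2215 fragments, 124 sums by position and length, 36 differences between genotypes and 28 gene copies. The planned edgeR test was not run, because the reads of the table are repeated between tRNAs and could not be declared as plain counts.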

Other observations

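Some nuclear sums outside the groups above also changed. tiRNA-5 of Lys-CTT rose from 2090 and 1683 CPM to 13245 and 5725 CPM (2.95 ± 0.64, limma adjusted p = 0.0074). Fragments of Leu-TAA listed as Other rose by 1.98 ± 0.24 on the log2 scale (adjusted p = 0.00025), while those of Ala-TGC went from 1031 and 1406 CPM to 302.6 and 290.6 CPM (−1.23 ± 0.24, adjusted p = 0.0047). Those listed under Arg-CCG and Arg-CCT also fell (−1.11 ± 0.35, adjusted p = 0.045), a call that was lost on leaving out 3 of the 4 libraries in turn. Of all 83 sums of nuclear fragments listed as Other, 3 were higher and 4 lower (16.4% and 6.76% over all 281 sums). The most abundant of these, of Glu-CTC, stood at 44452 and 45998 CPM and then 40642 and 22690 CPM (adjusted p = 0.89).

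Of tRF-1s not described above, Lys-TTT had 0 reads at D0 and 99.3 and 172.8 CPM at D3 (adjusted p = 0.00033), and Ile-AAT went from 2160 and 2471 CPM to 4195 and 4634 CPM (1.67 ± 0.28, adjusted p = 0.0021). The trailers of Lys-TTT-2-2, a gene of the first anticodon, passed the filter on low reads only through D3. The p-value of the Lys-TTT sum is therefore a description. At D27, in NS-KO livers after repeated CCl4, internal fragments of mitochondrial tRNAs were at 3.49% and 4.43% of reads, near the D0 shares. A mitochondrial tyrosine tRNA was not analysed here.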
